A study of Homo sapiens with 31 samples.

Results

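Transcripts of 5 RNA helicases other than eIF4A were followed across the series: DDX3X (ENST00000644876), DDX5 (ENST00000225792), DDX21 (ENST00000354185), DHX9 (ENST00000367549) and DHX29 (ENST00000251636). They were chosen by transcript ID and kept only if the length column of the files lay within 5 of the protein length minus 9, and all 5 did: 653, 605, 774, 1261 and 1360 codons, each equal to the expected length. They are 5 of 227264 transcripts in the files and 5 of 35499 after reduction to 1 transcript per locus. The question put to them was whether other helicases change when eIF4A1 is lost.

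RNA helicases use ATP to open RNA structure or to displace proteins from RNA. DDX proteins share the DEAD-box core of eIF4A, the helicase of the cap-binding complex that prepares mRNA for the ribosome, and DHX proteins belong to the related DEAH/RHA group. DDX3X and DHX29 are known to assist initiation on structured 5′ leaders, DDX5 and DHX9 act mostly in nuclear RNA processing and transcription, and DDX21 works in the nucleolus on ribosome production. Inhibition of the kinase mTOR represses mRNAs that begin with a 5′ terminal oligopyrimidine (TOP) tract, a C at the first base followed by a run of C and T, and the protein LARP1 binds such ends.

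HEK293 T-REx, an embryonic kidney line of human origin built for inducible transgenes, was the source of every library, grown in the same medium. Ribosome profiling, which counts the RNA fragments protected by ribosomes (footprints), covered 3 genotypes: naive, EIF4A1 KO and EIF4A2 KO. For each genotype there were 2 libraries with DMSO, a single one with 1 µM PP242 and a single one with 10 µM, for 30 min, PP242 being an mTOR kinase inhibitor. RNA-seq covered naive and EIF4A1 KO cells without a named treatment, with 2 libraries each. Streptavidin pulldown of RNA, with input, covered cells of genotype SBP-eIF4A1 or SBP-eIF4A2 (2 inputs and 2 pulldowns each), where SBP is a streptavidin-binding tag. It also covered SBP-eIF4A1 cells after 72 h of control siRNA (2 inputs, 2 pulldowns) or LARP1 siRNA (2 inputs, 1 pulldown). The labels do not say how many clones a KO line holds or whether replicates were separate cultures, so p-values measure the spread between libraries, which may be technical. In the PP242 comparisons that spread also includes the difference between the doses, since neither dose has a replicate within a genotype. A difference between clones cannot be told apart from the knockout. Replicate titles of EIF4A2 KO, SBP-eIF4A2 and RNA-seq libraries are styled otherwise (rep) than the rest (replicate). Whether they were made apart is not stated. EIF4A2 KO against naive or EIF4A1 KO footprints, SBP-eIF4A2 against SBP-eIF4A1, and footprints per RNA cross that split. A possible batch cannot be told apart from the groups there. Only transcript IDs stand in the files, and the gene tables at hand do not pair them with names, so the level of EIF4A1, EIF4A2 or LARP1 was not checked here and the genotypes rest on the labels. A list of other helicases drawn up by symbol could not be matched for the same reason. Libraries held 2515013 to 6420287 counts in profiling, 19706862 to 21631521 in RNA-seq and 11890148 to 17642738 in pulldown and input, summed over 1 transcript per locus. The lowest raw count of any of the 5 in a library was 230 (DHX29, naive cells at 10 µM PP242).

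Since the TOP tract is read from the first bases of an mRNA, the most upstream start listed for each gene in the RefSeq promoter table (GRCh38.p14) is shown with 10 bases before the start and the first 10 after it. Capitals mark the first 5 bases of the RNA.
DDX21 (chr10:68956160-68956179, + strand): ggggaactacCTCTTcctct
DDX5 (chr17:64506629-64506648, - strand): cgccttccccCTCTTttggt
DDX3X (chrX:41333298-41333317, + strand): accgcgcaggAAGGTgtccg
DHX9 (chr1:182839337-182839356, + strand): cgcggtcggaGCCATttcgc
DHX29 (chr5:55307685-55307704, - strand): gccccggcccGAGAAgcccg
A C at the first base followed by at least 4 bases that are each C or T, read on the gene's own strand, stood at the DDX21 start, with a run of 12 pyrimidines, and at the DDX5 start, with a run of 7. The other 8 of the 10 starts that the table lists for the 5 genes did not hold it, including a second DDX21 start and 2 further DDX5 starts. For DDX5 the table lists no start at the upstream edge of the gene (position 64506866 of chromosome 17), and the one shown, at 64506638, lies inside it. Of 35116 start windows in the RefSeq table, 4.07% held it. Which start the counted transcript uses in these cells was not measured.

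In naive cells 4 of the 5 were abundant and DHX29 was not. Per kilobase of counted coding region, naive RNA stood at 228.5 ± 6.51 CPM (SD, n = 2) for DDX21, 226.4 ± 4.38 for DDX3X, 203.8 ± 0.919 for DDX5, 139.4 ± 1.2 for DHX9 and 21.94 ± 0.841 for DHX29, where CPM are counts scaled to a common library total by TMM. DDX21 and DDX3X did not differ beyond their spread, and the other neighbours in that order did. Naive DMSO footprints per kilobase followed another order: DDX5 at 514.6 ± 7.35, DDX3X at 330.7 ± 2.55, DDX21 at 293.9 ± 11.5, DHX9 at 173.7 ± 1.13 and DHX29 at 21.98 ± 0.163. DDX5 thus had the most footprints per RNA, 2.54, against 1.01 to 1.47 for the other 4, on a scale set by the scaling of the 2 assays. Among transcripts of at least 50 codons, the 4 abundant ones lay at percentiles 95.2 to 97.3 of RNA level per length and DHX29 at 65.4.

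DDX5 RNA was higher and DDX3X RNA lower in EIF4A1 KO than in naive cells (edgeR's quasi-likelihood test, adjusted p over all transcripts). DDX5 RNA was 371.2 and 368.8 CPM in naive cells and 561.0 and 548.2 in EIF4A1 KO cells. The groups did not overlap, and the rise was 1.5-fold (log2 0.58, SE 0.032, adjusted p 8.26e-16). DDX3X RNA fell from 449.5 and 437.4 CPM to 385.6 and 377.6 (log2 -0.22, SE 0.033, adjusted p 2.94e-06), again without overlap. DHX9 RNA stood at 524.3 and 530.7 CPM in naive and 555.2 and 558.0 in KO cells, a log2 difference of 0.078 (SE 0.031) with an adjusted p of 0.0486 by edgeR. That call did not hold without naive replicate 1 (adjusted p 0.119), KO replicate 1 (0.149) or KO replicate 2 (0.215), under the DESeq2 Wald test (0.124), with all distinct transcripts tested (0.0538) or with the replicate number as a block (0.0794). DDX21 (516.5 and 518.0 CPM in KO against 541.2 and 520.0) and DHX29 (95.26 and 98.64 against 91.96 and 87.11) did not pass, with adjusted p of 0.393 and 0.0626. DHX29 passed without naive replicate 1 (log2 0.15, adjusted p 0.026) and without the filter on low counts (0.13, 0.0389). In all, 3 of 5 were called, beside 36.5% of all transcripts tested, and the median log2 change of the 5 was 0.078 against -0.002 for all. The change of DDX5 lay at percentile 92.8 of all changes.

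Footprints in DMSO moved otherwise than RNA, and most for DHX9. DHX9 footprints were 654.0 and 660.1 CPM in naive cells and 994.2 and 958.7 in EIF4A1 KO cells. Both KO libraries lay above both naive ones, a 1.49-fold rise (log2 0.57, SE 0.055, adjusted p 2.57e-16). DDX5 footprints rose from 924.6 and 943.4 CPM to 1201 and 1182 (log2 0.35, SE 0.053, adjusted p 3.85e-08). DDX3X footprints, at 651.4 and 644.4 CPM in naive and 639.5 and 661.3 in KO cells, overlapped (log2 0.005, SE 0.057). DDX21 (log2 0.10, SE 0.056, adjusted p 0.201) and DHX29 (0.22, SE 0.097, 0.0934) did not pass. The count was 2 of 5, beside 22.7% of all transcripts, and the median of the 5 was 0.22 against -0.013 for all tested and 0.14 for the 4208 tested transcripts of at least 605 codons, the length of the shortest of the 5.

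**Figure D1:**
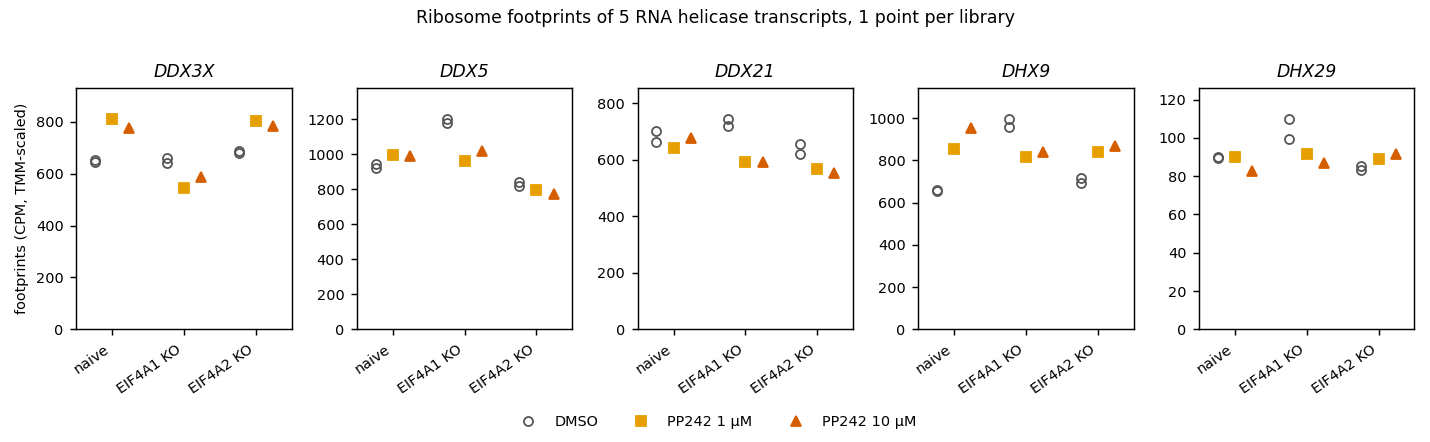
Footprint level (CPM after TMM scaling, y axis from 0) of each helicase transcript in the 12 profiling libraries, by genotype on the x axis; open circles are the 2 DMSO libraries, squares 1 µM and triangles 10 µM PP242. DHX9 is at 654.0 and 660.1 CPM in naive DMSO and at 994.2 and 958.7 in EIF4A1 KO DMSO.

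The change in translation efficiency, that is, of footprints relative to RNA, was called for 3 of 5, beside 9.48% of all transcripts. DHX9 rose by 0.48 log2 units (SE 0.061, adjusted p 1.24e-09 by edgeR), its footprints per RNA going from 1.25 to 1.75. DDX5 fell by 0.24 (SE 0.059, adjusted p 0.0024), from 2.54 to 2.14 footprints per RNA, so its footprints rose less than its RNA. DDX3X rose by 0.21 (SE 0.063, adjusted p 0.0184), with less RNA and level footprints. The DDX3X call was lost without any one of 6 of the 8 libraries. The adjusted p was 0.0923 and 0.159 without naive footprint replicate 1 and 2, 0.127 and 0.282 without KO footprint replicate 1 and 2, 0.0547 without naive RNA replicate 1 and 0.0932 without KO RNA replicate 2, with log2 values of 0.14 to 0.20. DDX21 (0.13, SE 0.062, adjusted p 0.222) and DHX29 (0.092, SE 0.10, 0.687) did not pass. The median of the 5 was 0.13, against -0.038 for all and 0.083 for the 4784 tested transcripts of at least 605 codons. Among all changes DHX9 lay at percentile 84.7, DDX3X at 70 and DDX5 at 34.4. DDX3X and DDX5 thus lay between the lower and upper quartiles, -0.399 and 0.284. All 3 called are among the abundant ones, and the share called among transcripts of like level was not counted.

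**Figure D2:**
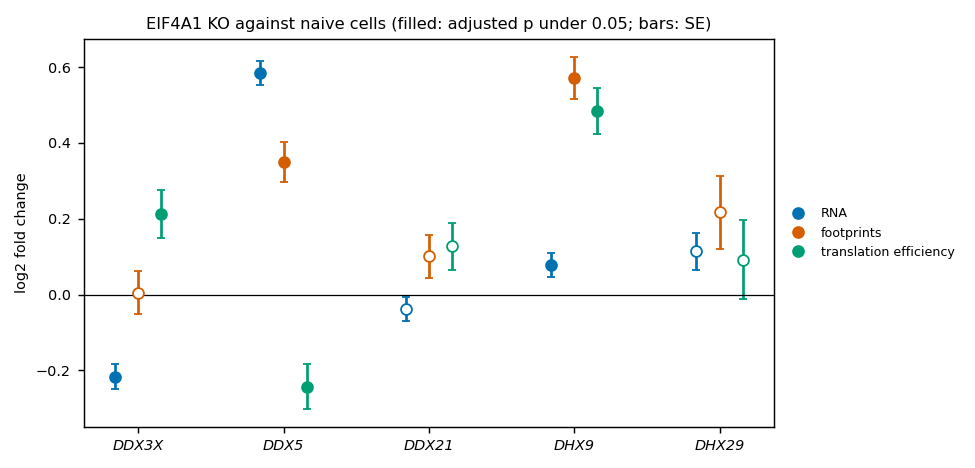
Log2 fold change in EIF4A1 KO against naive cells (y axis) for each helicase (x axis), for RNA, DMSO footprints and translation efficiency; bars are the standard error and filled points passed an adjusted p of 0.05. DHX9 stands at 0.078 for RNA and 0.57 for footprints, and DDX5 at 0.58 and 0.35.

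Loss of EIF4A2, the close paralogue of EIF4A1, was compared with the same naive libraries. Of the 5, only DDX5 passed, falling to 817.2 and 845.3 CPM of footprints (log2 -0.17, SE 0.052, adjusted p 0.0262), beside 8.04% of all transcripts. That call was lost without naive replicate 2 (adjusted p 0.161) or EIF4A2 KO replicate 1 (0.19), under the DESeq2 Wald test (0.0783) and with the replicate block (0.0735). DHX9 stood at 716.1 and 695.0 CPM (log2 0.10, SE 0.054, adjusted p 0.27), and the other 3 lay between -0.098 and 0.076. The median of the 5 was -0.093, against 0.001 for all transcripts.

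The direct test between the knockouts called 4 of 5 as higher in EIF4A1 KO cells, beside 22.6% of all transcripts in both directions. Of the 19844 tested, 2188 were called as higher. In that test, genotype and the split in library titles cannot be told apart. DDX5 was higher by 0.52 (SE 0.053, adjusted p 6.04e-15) and DHX9 by 0.47 (SE 0.055, adjusted p 3.01e-12). DDX21 was higher by 0.20 (SE 0.057, adjusted p 0.0053), with 721.2 and 743.3 against 619.2 and 656.5 CPM. DHX29 was higher by 0.31 (SE 0.099, adjusted p 0.0131), with 99.23 and 109.7 against 85.08 and 83.17 CPM. Without EIF4A1 KO replicate 2 the DDX21 value was 0.18 (adjusted p 0.0699) and that of DHX29 0.24 (0.207). DDX21 was also lost without EIF4A2 KO replicate 1 (0.15, adjusted p 0.113), and DHX29 without EIF4A2 KO replicate 2 (0.29, 0.0703) and under the DESeq2 Wald test (0.0734). DDX3X did not pass (-0.071, SE 0.057, adjusted p 0.404). The median of the 5 was 0.31, against -0.007 for all and 0.12 for the 4208 tested transcripts of at least 605 codons. The lower and upper quartiles of those longer transcripts were -0.196 and 0.372, and DDX21 and DHX29 lay between them.

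PP242 raised DHX9 and DDX3X footprints in naive cells and lowered them in EIF4A1 KO cells. With both doses taken as treated libraries, DHX9 footprints in naive cells rose from 654.0 and 660.1 CPM to 851.5 at 1 µM and 951.4 at 10 µM (log2 0.45, SE 0.060, adjusted p 1.57e-08). In EIF4A1 KO cells they fell from 994.2 and 958.7 to 817.2 and 839.3 (log2 -0.24, SE 0.060, adjusted p 0.00708). Both untreated EIF4A1 KO libraries lay above both treated naive libraries. Without EIF4A2, DHX9 rose from 716.1 and 695.0 to 841.2 and 868.4 CPM (log2 0.28, SE 0.060, adjusted p 0.000429).

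DDX3X followed the same directions as DHX9. In naive cells its footprints rose from 651.4 and 644.4 CPM to 809.2 at 1 µM and 774.0 at 10 µM (log2 0.29, SE 0.060, adjusted p 3e-04). Without EIF4A2 they went up, from 677.9 and 687.8 to 802.1 and 781.8 CPM (log2 0.21, SE 0.059, adjusted p 0.0084). In EIF4A1 KO cells they fell from 639.5 and 661.3 to 546.1 and 587.2 CPM (log2 -0.20, SE 0.062, adjusted p 0.0417). The fall in EIF4A1 KO cells was lost without DMSO replicate 1 (adjusted p 0.143), DMSO replicate 2 (0.257) or the 1 µM library (0.356), and with all distinct transcripts tested (0.0597). The rise in EIF4A2 KO cells was lost without DMSO replicate 1 (0.0891), DMSO replicate 2 (0.0507) or the 1 µM library (0.103).

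DDX21, the gene with a start of 12 pyrimidines, overlapped between DMSO (663.7 and 701.4 CPM) and PP242 (640.5 at 1 µM, 677.3 at 10 µM) in naive cells, with a log2 change of -0.053 (SE 0.061, adjusted p 0.693). It fell in EIF4A1 KO cells, from 721.2 and 743.3 to 591.8 and 593.9 CPM (log2 -0.30, SE 0.062, adjusted p 0.00037). A fall without EIF4A2, from 619.2 and 656.5 to 566.6 and 552.7 CPM (log2 -0.19, SE 0.060, adjusted p 0.027), was lost without DMSO replicate 2 (adjusted p 0.263), the 10 µM library (0.171) or the 1 µM library (0.0868). DDX5 fell in EIF4A1 KO cells, from 1201 and 1182 to 960.3 at 1 µM and 1022 at 10 µM (log2 -0.26, SE 0.058, adjusted p 0.00129), and not by the test in naive (0.09, SE 0.058, adjusted p 0.398) or EIF4A2 KO cells (-0.080, SE 0.058, 0.444). DHX29 passed in no genotype, at -0.047, -0.23 and 0.10 in naive, EIF4A1 KO and EIF4A2 KO cells.

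The counts were 2 of 5 in naive cells, both rising, beside 9.38% of all transcripts, 4 of 5 in EIF4A1 KO cells, all falling, beside 6.02%, and 3 of 5 in EIF4A2 KO cells, beside 11.7%. These shares count both directions. Of the 20505 transcripts tested, 754 were called as rising in naive cells and 758 as falling in EIF4A1 KO cells. The medians of the 5 were 0.09, -0.24 and 0.10, against 0.005, 0.009 and 0.013 for all and 0.077, -0.029 and 0.11 for transcripts of at least 605 codons. In EIF4A1 KO cells, leaving out DMSO replicate 1 ended the DHX9 call (-0.21, adjusted p 0.156), and leaving out the 1 µM library ended those of DHX9 (-0.22, 0.0849) and DDX5 (-0.22, 0.0617). Fitted instead as a slope over a dose score of 0, 1 and 2, DHX9 in naive cells passed and no other of the 5 did in any genotype. That fit called few transcripts of any kind: 289 in naive cells, 0 without EIF4A1 and 448 without EIF4A2, against 1924, 1234 and 2400 with both doses as treated libraries.

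**Figure D3:**
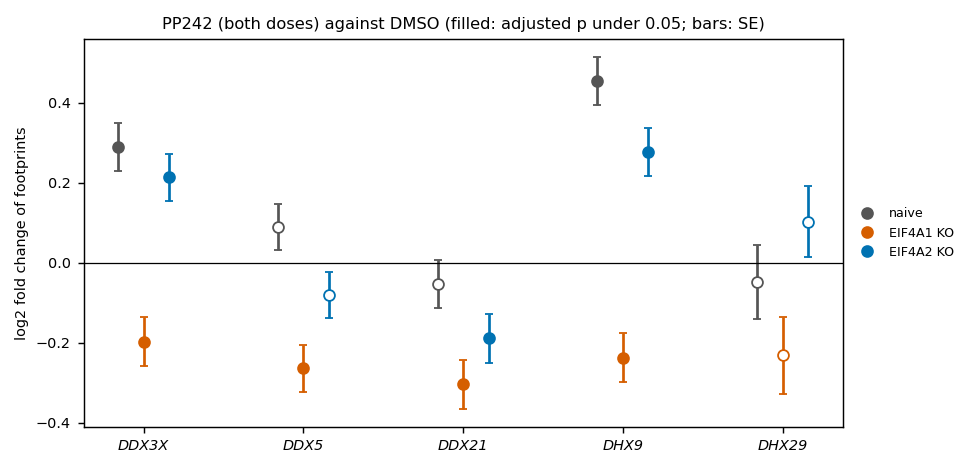
Log2 fold change of footprints with PP242 (1 and 10 µM libraries together) against DMSO (y axis) for each helicase (x axis) in 3 genotypes; bars are the standard error and filled points passed an adjusted p of 0.05. All 5 points of EIF4A1 KO cells lie below 0, between -0.30 and -0.20, while DHX9 stands at 0.45 in naive and 0.28 in EIF4A2 KO cells.

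The difference of the PP242 responses was also tested directly. Between EIF4A1 KO and naive cells it was called for 3 of 5, all lower without EIF4A1, beside 6.06% of all transcripts in both directions. Of the 20505 tested, 502 were called as lower. The difference was -0.69 for DHX9 (SE 0.085, adjusted p 1.74e-08, percentile 6 of all), -0.49 for DDX3X (SE 0.086, adjusted p 5.3e-05) and -0.35 for DDX5 (SE 0.082, adjusted p 0.00273). For DDX21 it was -0.25 (SE 0.086, adjusted p 0.0695) and for DHX29 -0.18 (SE 0.13, 0.502). The calls of DHX9, DDX3X and DDX5 held with each library left out in turn. Under the dose score 2 transcripts passed in all, none of them among the 5, where 1243 had passed. The slopes per step of the score were -0.40 for DHX9 (adjusted p 0.243), -0.24 for DDX3X (0.433) and -0.17 for DDX5 (0.537), each of the same sign as the difference above. The median of the 5 was -0.35, against 0.017 for all and -0.11 for the 4257 tested transcripts of at least 605 codons, so longer coding regions as a group also stood lower, and the part of length in these values was not tested. This difference and the untreated difference between the genotypes share the DMSO libraries. Between EIF4A2 KO and naive cells 0 of 5 were called by edgeR, beside 0.0683% of all transcripts, with differences of -0.18 to 0.15, 2 of 5 at an unadjusted p under 0.05 and 0 of 5 by the DESeq2 Wald test.

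Across the 12 profiling libraries, DHX9 was most like ENST00000325680.12 (Pearson r 0.985 of log2 CPM) and DDX3X most like ENST00000350030.8 (r 0.981), among the 5819 transcripts whose log2 CPM averaged 5 or more. For DDX5, DHX29 and DDX21 the highest r were 0.968, 0.947 and 0.902. Within the 5, DDX5 and DDX21 were most alike (r 0.814), then DHX9 and DHX29 (0.755), and DDX3X and DDX5 least (-0.142). These values share libraries and genotypes and carry no test.

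In the pulldowns without siRNA all 5 helicase mRNAs were depleted with both proteins. With SBP-eIF4A1, DDX3X stood at 481.0 and 479.5 CPM in input and 192.7 and 205.2 in pulldown (log2 -1.27, SE 0.056, adjusted p 7.96e-12). DDX21 went from 452.0 and 466.5 to 225.5 and 217.5 CPM (-1.05, SE 0.054, adjusted p 5.14e-11). The others were less depleted, DHX29 at -0.84 (66.27 and 70.19 to 39.17 and 37.03 CPM), DDX5 at -0.69 (323.4 and 286.6 to 192.2 and 186.3) and DHX9 at -0.645 (374.0 and 376.3 to 240.4 and 239.4). No pulldown library of any of the 5 reached its input. The count of 5 of 5 stands beside 55.4% of all transcripts called in either direction, 7091 of the 26600 tested being called as depleted. The median of the 5 was -0.84, against 0.036 for all and -0.44 for the 4896 transcripts of at least 605 codons.

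With SBP-eIF4A2, DHX29 went from 81.71 and 82.53 to 35.50 and 34.36 CPM (-1.23, SE 0.071, adjusted p 1.49e-10) and DDX3X from 410.6 and 385.8 to 170.4 and 170.9 (-1.22, SE 0.055, adjusted p 8.6e-12). DDX21 stood at -1.10 (449.8 and 442.4 to 214.4 and 202.3 CPM), DHX9 at -0.95 (517.7 and 525.1 to 266.8 and 272.7) and DDX5 at -0.63 (371.1 and 364.6 to 251.4 and 225.6). Again 5 of 5 passed, beside 59.8% of all transcripts in either direction, 7988 of the 26600 tested being called as depleted. The median of the 5 was -1.10, against 0.025 for all and -0.22 for transcripts of at least 605 codons. The difference between the proteins was called for 2 of 5, beside 15.7% of all: DHX9 (0.31, SE 0.071, adjusted p 0.00651) and DHX29 (0.39, SE 0.10, adjusted p 0.0151) were less depleted with SBP-eIF4A1. The median difference of the 5 was 0.046, against 0.034 for all and -0.17 for transcripts of at least 605 codons. The DHX29 call was lost without SBP-eIF4A1 input replicate 1 (adjusted p 0.0926), SBP-eIF4A1 pulldown replicate 1 (0.0775), SBP-eIF4A2 input replicate 1 (0.0601) or replicate 2 (0.0817), and under the DESeq2 Wald test (0.0582). The inputs of DHX9, DHX29 and DDX5 stood lower in SBP-eIF4A1 than in SBP-eIF4A2 cells, and those of DDX3X higher. Those of DDX21 were close (452.0 and 466.5 against 449.8 and 442.4 CPM). The inputs were not tested against each other, and how many of all transcripts differed in input was not counted. The part of input levels in the enrichment difference was not tested. The split in library titles also runs between the tagged proteins. No pulldown from untagged cells was analysed here, so RNA that binds the beads themselves is not separated.

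After control siRNA the SBP-eIF4A1 pulldown gave another order. DDX3X was depleted, from 525.1 and 559.2 to 177.4 and 164.0 CPM (-1.67, SE 0.18, adjusted p 2.75e-10), and so was DDX21, from 803.4 and 886.3 to 322.6 and 366.0 (-1.295, SE 0.18, adjusted p 6.65e-08). DDX5 was enriched, from 442.8 and 457.0 to 664.2 and 733.0 CPM (0.635, SE 0.175, adjusted p 0.00247), a call lost without siControl input replicate 2 (0.61, adjusted p 0.0504). DHX9 (606.8 and 679.6 to 711.5 and 851.5 CPM; 0.28, SE 0.18, adjusted p 0.185) and DHX29 (-0.30, SE 0.19, 0.194) did not pass. The count was 3 of 5, beside 49.3% of all, and the median of the 5 was -0.30, against 0.081 for all and 0.50 for transcripts of at least 605 codons.

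A comparison of the siControl enrichment with that of the same protein without siRNA was added after these values were seen. It was called for 3 of 5, beside 50.2% of all transcripts. The enrichment after siControl was higher by 1.39 for DDX5 (SE 0.14, adjusted p 1.86e-06), 0.99 for DHX9 (SE 0.15, adjusted p 7.87e-05) and 0.60 for DHX29 (SE 0.17, adjusted p 0.0085). The DHX29 call was lost without input replicate 2 (0.56, adjusted p 0.0543) or pulldown replicate 2 (0.56, 0.0527) of the set without siRNA. DDX3X stood at -0.33 (SE 0.14, adjusted p 0.0557) and passed without siControl input replicate 1 (-0.38, 0.0442) or siControl pulldown replicate 1 (-0.365, 0.0163), with DESeq2 size factors (0.0456) and with all distinct transcripts (0.0306). DDX21 did not pass (-0.18, SE 0.14, 0.319). Transcripts of at least 605 codons had a median of 0.93, against 0.099 for all, and the siRNA treatment and the experiment cannot be told apart.

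**Figure D4:**
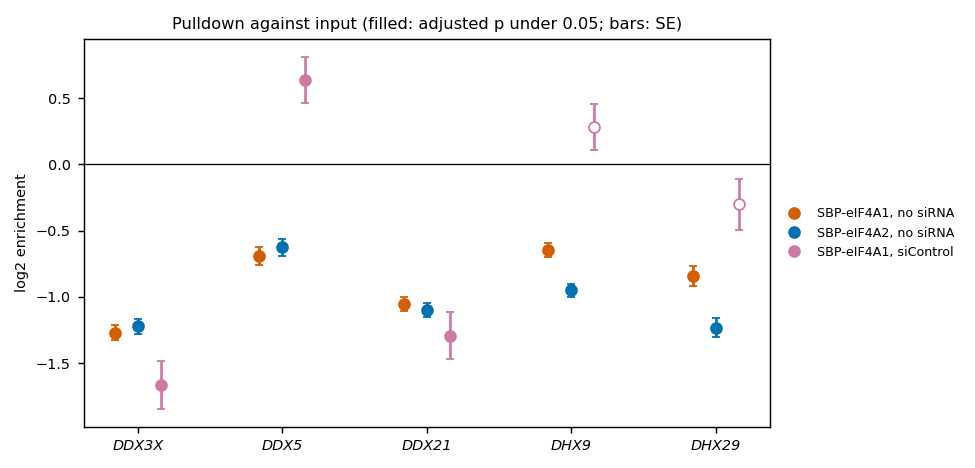
Log2 enrichment in pulldown over input (y axis) for each helicase (x axis) with SBP-eIF4A1 and SBP-eIF4A2 without siRNA and with SBP-eIF4A1 after siControl; bars are the standard error and filled points passed an adjusted p of 0.05. The values without siRNA lie between -1.27 and -0.63, and that of DDX5 after siControl is at 0.635.

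LARP1 siRNA called 0 of 5 in the inputs by edgeR, beside 0.517% of all transcripts, with 1 of 5 at an unadjusted p under 0.05 and 0 of 5 by the DESeq2 Wald test. DDX21 was lowest, at 652.2 and 610.0 CPM against 803.4 and 886.3 after siControl. Its libraries did not overlap, and the log2 difference of -0.42 (SE 0.175) had an adjusted p of 0.296. The other 4 lay between -0.16 and 0.089. In the pulldown after LARP1 siRNA, with 1 library and so no replicate check and no test, DDX3X was at 162.0 CPM, DDX5 at 794.9, DDX21 at 246.8, DHX9 at 671.2 and DHX29 at 80.25. Relative to the inputs, the enrichment differed from that after siControl by 0.086, 0.19, -0.059, -0.155 and -0.24 in the same order, against a median of -0.050 for all transcripts. Leaving out single libraries moved all 5 by more than 1.5 times: DDX3X between 0.026 and 0.131, DDX5 between 0.093 and 0.263, DDX21 between -0.175 and 0.031, DHX9 between -0.306 and -0.023 and DHX29 between -0.48 and 0.008.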

How the data were processed

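The authors deposited raw counts per Ensembl transcript, 1 headerless file per library, with a second column of lengths read as codons. The submitters' processing notes name STAR 2.7.0a, CASAVA 1.8 and hg38, with no role given; the counting tool, the annotation release and the handling of reads that map to more than 1 place are not given in the sources used here. In the files a read is counted in each transcript that holds it, so isoforms repeat each other's counts. Identical count vectors were collapsed (77343 distinct), and 1 transcript per locus was kept by dropping transcripts within 10 distinct rows whose log2 CPM (pseudocount 0.5) correlated at r of at least 0.9 with a kept one. The 5 helicase transcripts were placed first in that order. Other isoforms of the same gene, and close paralogues of DDX3X and DDX5, could share their reads. DDX3X had 4 further transcripts with identical counts, and 2 other kept transcripts within 100 file rows correlated with DDX3X, and 1 with DDX5, at r of at least 0.9.

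Tests across all transcripts used edgeR 4.0.16 (R 4.3.3): TMM, filterByExpr (minimum count 10, minimum total 15), glmQLFit and glmQLFTest, two-sided, with Benjamini-Hochberg adjustment over all transcripts of a comparison and calls at an adjusted p under 0.05. SE are the log2 change over the root of the F statistic. Fits took the 4 RNA-seq libraries, the 6 DMSO profiling libraries, the 8 untreated or DMSO libraries, RNA-seq and profiling, of those 2 genotypes with RNA-seq (interaction), all 12 profiling libraries (PP242 at either dose against DMSO), the 8 pulldown libraries without siRNA, the 7 siRNA libraries, and 8 SBP-eIF4A1 libraries. The scripts were also run on simulated counts with the same dispersion for every transcript and experiment. That run does not show how calls behave at the spread of these libraries. CPM printed are scaled within an experiment. All values are relative to the other transcripts of a library. Shares called were taken over all transcripts tested, and those among transcripts of like level were not counted. No pair of replicates agreed within counting noise (chi-square per transcript 1.38 to 17.37, against 1). Alternatives were DESeq2 1.42.0 size factors or its Wald test, no filter, all distinct transcripts, a replicate block, a dose score and leaving out each library. The dose score was run in the PP242 fits only, and the replicate block in all other fits. The 5 transcripts, the tests and the PP242 coding were chosen with earlier results of these data known. All 5 are described, called or not, and like transcripts are given by the highest r for each, the top 2 by ID, leaving out 100 file rows on either side.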

Additional observations from a re-analysis of the deposited data

Results flagged for a closer look

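These values are listed because effects in 2 groups differed by a direct test (edgeR, adjusted p under 0.05). Untreated footprints differed between EIF4A1 KO and EIF4A2 KO cells for DDX5 (log2 0.519), DHX9 (0.469), DHX29 (0.31) and DDX21 (0.198). There 22.6% of all transcripts were called, and the DHX29 and DDX21 calls were lost with some single libraries left out. The PP242 response of EIF4A1 KO minus that of naive cells was -0.691 for DHX9, -0.487 for DDX3X and -0.354 for DDX5. For that difference 6.06% of all transcripts were called in either direction, and under the dose score no helicase was called. Enrichment with SBP-eIF4A1 exceeded that with SBP-eIF4A2 for DHX29 (0.392) and DHX9 (0.306), beside 15.7% of all transcripts called. The DHX29 call was lost under the DESeq2 Wald test and with some single libraries left out. The split in library titles runs between the tagged proteins and between the knockouts. Enrichment with SBP-eIF4A1 was higher after siControl than without siRNA for DDX5 (1.387), DHX9 (0.989) and DHX29 (0.603). There 50.2% of all transcripts were called. Those of at least 605 codons had a median of 0.93, close to the DHX9 value and above that of DHX29. The DHX29 call was also lost with some single libraries left out. No group had the 4 libraries needed to look for an outlying one.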

How the results depend on the processing

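The 80 tested values of the 5 helicases kept their side of the threshold in 643 of 680 cases with a library left out and in 378 of 400 under other settings. None changed sign while called. Signs changed in 13 cases called under neither setting, with log2 values of at most 0.162. The dose score left 1 helicase called in naive cells and 0 in EIF4A1 KO cells, in EIF4A2 KO cells and in the difference between EIF4A1 KO and naive cells, where it called 289, 0, 448 and 2 of all transcripts, against 1924, 1234, 2400 and 1243, so few calls of any kind were left. The DESeq2 Wald test left 0 called in EIF4A2 KO against naive footprints and 1 in the difference between the tagged proteins. The replicate block left 0 in EIF4A2 KO against naive footprints. Beyond this and DHX9 RNA it changed no other call in the fits where it was run. The PP242 fits were not run with a replicate block. Same-numbered libraries deviated with correlations of -0.185 to 0.566, under 0.1 in 11 of 13 pairs of groups. The labels name no shared batch, and the numbers were not taken as pairs. The 2 above 0.1 were input with pulldown, at 0.566 after siControl and 0.131 with SBP-eIF4A2, beside 0.054 with SBP-eIF4A1. In the pulldown fits the replicate block was a single term over all groups. Pairing of each input with its own pulldown was not tested. With 1 library left out, the called helicases ranged from 0 to 1 in EIF4A2 KO against naive footprints, 2 to 4 between the knockouts, 1 to 4 with PP242 in EIF4A1 KO cells, 1 to 3 in EIF4A2 KO cells and 1 to 2 between the tagged proteins. The median change of enrichment after siLARP1 ranged from -0.175 to 0.026. Counts over all transcripts moved by 2.81 to 4.48 times when all distinct transcripts were tested, 0.328 to 2.68 times under the Wald test, 0 to 0.187 times under the dose score, 0.911 to 2.96 times without the filter and 0.13 to 2.86 times with a library left out. DHX29, which had the fewest counts of the 5 (28987 over all libraries), had SE of 0.089 to 0.133 in the comparisons made from profiling libraries alone.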
